A study of Mus musculus with 40 samples.

Results

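The 10 genes described here are markers of preadipocytes and of the other stromal progenitors of fat: *Pdgfra*, *Pdgfrb*, *Dlk1*, *Ly6a*, *Cd34*, *Thy1*, *Dpp4*, *Pi16*, *Zfp423* and *Zfp521*. They were chosen by name, out of 21951 protein-coding genes of the mouse annotation, and the rule that chose them uses no measured value. Each was read over its annotated span plus 10 kb upstream of its start, and the measure was the length of DNA under peaks of H3K27ac in that window, in kb (covered length). H3K27ac is acetylation of lysine 27 of histone H3, and it was measured by chromatin immunoprecipitation and sequencing (ChIP-seq).

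The cells came from the inguinal white fat of C57BL/6 mice of 8 to 12 weeks. Wild type (WT) mice were compared with mice that lack both HMGN1 and HMGN2, proteins that bind nucleosomes (Hmgn1-/- and Hmgn2-/-, double knockout, DKO). In both genotypes the preadipocytes were grown on collagen to confluency (day 0) and were then given insulin, dexamethasone, IBMX, T3 and rosiglitazone, followed by insulin and T3 alone. Libraries were made at day 0 and at days 3, 6 and 9 of differentiation, 3 for each genotype and day, 24 in all. The knockout is of the whole mouse, so the preadipocytes had developed without both proteins before they were cultured, and the number of mice behind each library is not given in the sources used here. P-values then measure the spread between these libraries, which may be technical. *Hmgn2* carried a peak in 12 of 12 libraries of WT and 0 of 12 of DKO, and *Hmgn1* carried one in all 24, so only *Hmgn2* checks the labels by its peaks.

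H3K27ac lies at active promoters and enhancers, and a cell that leaves one identity for another loses it at the regulatory elements of the first and gains it at those of the second. Preadipocytes in white fat are PDGFRA-positive stromal cells. In current descriptions of the tissue, cells with *Dpp4* and *Pi16* are the earliest progenitors, and they give rise to committed preadipocytes. ZFP423 drives the commitment of mesenchymal cells to the adipocyte lineage and holds white adipocytes in their white state, and ZFP521 opposes adipocyte commitment. DLK1, also called preadipocyte factor 1, inhibits differentiation. The cultures hold more than one kind of cell, and fewer cells of a kind and less acetylation per cell cannot be told apart in these data.

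The lists differed in ways that touch every value below. They held 47448 to 115923 peaks each, and the whole length under peaks was 20.7 to 96.4 Mb per library. DKO day 0 replicate 2 stood apart, with a narrowest peak of 440 bp against 155 to 165 bp in the other 23 lists, and with the highest covered length, 96.4 Mb against at most 68.8 Mb. WT day 3 replicate 3 was the shallowest, at 4.50 background reads per kb against 8.61 to 12.8 elsewhere. At day 6 the DKO lists covered 35.4, 36.3 and 20.7 Mb and the WT lists 56.4, 55.5 and 60.4 Mb, and a lower covered length at day 6 was shared by most genes. For that reason values are also given per Mb of a library's whole covered length (share). For the same reason, each count of members in these Results that uses all 24 libraries is set beside the same count over the 15592 protein-coding genes with a peak in at least 3 libraries.

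*Pdgfra*, a common marker of fat progenitors, carried peaks in all 24 libraries, as did *Pdgfrb*, *Ly6a*, *Cd34*, *Thy1*, *Zfp423* and *Zfp521*.

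The regions on which the results turn are shown first, as 300 bases of the GRCm38 reference around the median summit of their peaks, plus strand, with matches to any of 5 searched motifs in capitals. *Pdgfra* and *Ly6a* are shown at the region over the gene start, the 1 region of each that all 24 libraries called. *Dpp4*, *Pi16* and *Zfp423* are shown at the region with the smallest p of the genotype comparison.

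*Pdgfra* intron near the start (chr5:75153948-75154247): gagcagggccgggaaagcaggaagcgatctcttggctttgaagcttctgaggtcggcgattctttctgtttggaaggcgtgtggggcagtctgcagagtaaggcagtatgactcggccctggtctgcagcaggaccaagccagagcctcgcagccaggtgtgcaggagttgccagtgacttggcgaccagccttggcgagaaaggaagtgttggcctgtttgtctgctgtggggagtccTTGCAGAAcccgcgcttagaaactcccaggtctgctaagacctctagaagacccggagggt

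*Ly6a* intron near the start (chr15:74996439-74996738): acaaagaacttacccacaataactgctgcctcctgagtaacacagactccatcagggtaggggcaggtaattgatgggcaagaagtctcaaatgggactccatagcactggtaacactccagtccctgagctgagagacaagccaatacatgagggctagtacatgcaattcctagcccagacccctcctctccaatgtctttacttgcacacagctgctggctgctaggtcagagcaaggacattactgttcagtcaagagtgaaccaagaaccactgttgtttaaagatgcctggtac

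*Dpp4* intron (chr2:62380371-62380670): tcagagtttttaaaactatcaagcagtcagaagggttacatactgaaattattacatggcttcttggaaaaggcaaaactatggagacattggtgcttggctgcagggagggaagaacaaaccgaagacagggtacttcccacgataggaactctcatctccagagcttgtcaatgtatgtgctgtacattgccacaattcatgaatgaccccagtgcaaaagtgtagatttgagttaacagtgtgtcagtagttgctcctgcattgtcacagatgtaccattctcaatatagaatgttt

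*Pi16* upstream (chr17:29311761-29312060): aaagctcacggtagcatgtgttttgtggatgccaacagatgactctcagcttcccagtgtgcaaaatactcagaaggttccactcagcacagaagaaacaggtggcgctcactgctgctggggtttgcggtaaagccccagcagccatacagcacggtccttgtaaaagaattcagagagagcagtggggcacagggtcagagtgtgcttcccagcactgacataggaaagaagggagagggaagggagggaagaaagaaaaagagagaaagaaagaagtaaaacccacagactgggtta

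*Zfp423* intron (chr8:87861353-87861652): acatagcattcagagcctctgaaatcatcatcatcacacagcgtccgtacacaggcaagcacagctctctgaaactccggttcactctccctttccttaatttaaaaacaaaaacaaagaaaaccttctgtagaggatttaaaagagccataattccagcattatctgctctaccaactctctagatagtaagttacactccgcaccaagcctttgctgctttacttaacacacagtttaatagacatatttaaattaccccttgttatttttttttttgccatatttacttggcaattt

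The single match in these 5 windows was TTGCAGAA at *Pdgfra*, the letters searched for C/EBP factors (TTGCNNAA), which act early in adipocyte differentiation. Over the 104 merged regions of the 10 genes that at least 3 libraries called, this motif was found within the same 300-base window in 18 (17.3%), against 11.4% of the 91967 such regions of the genome. *Zfp521* held 8 of the 18. The motif of EBF factors (CCCNNGGG) was found in 10 of the 104 (9.62%, genome 10.1%), 4 of them at *Zfp423*. AP-1 (TGACTCA or TGAGTCA) was found in 4 (3.85%, genome 6.05%), the motif of the glucocorticoid receptor in 1 (0.962%, genome 0.680%) and the direct repeat bound by PPARG in 0 (genome 0.592%). Both strands were searched, matches of different motifs may overlap, and a match is a description of these letters only.

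The genes differed widely in how much of their window lay under peaks. Taken as the percentage of the window covered, the median over 24 libraries was 37.2% at *Ly6a*, 28.6% at *Pdgfrb*, 23.0% at *Thy1*, 20.03% at *Pdgfra*, 7.70% at *Zfp521*, 5.07% at *Cd34*, 3.53% at *Pi16*, 1.64% at *Dpp4*, 1.41% at *Zfp423* and 0% at *Dlk1*. The neighbours *Pdgfrb*, *Thy1* and *Pdgfra* overlapped widely, with ranges of 2.87 to 59.5%, 2.68 to 45.6% and 11.1 to 25.5%. *Pi16*, *Dpp4* and *Zfp423* also overlapped, at 0 to 24.3%, 0 to 4.06% and 0.0663 to 5.44%. *Zfp423* and *Zfp521* are long genes, with windows of 307.786 and 295.775 kb, so a low percentage there stands for several kb.

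**Figure D1:**
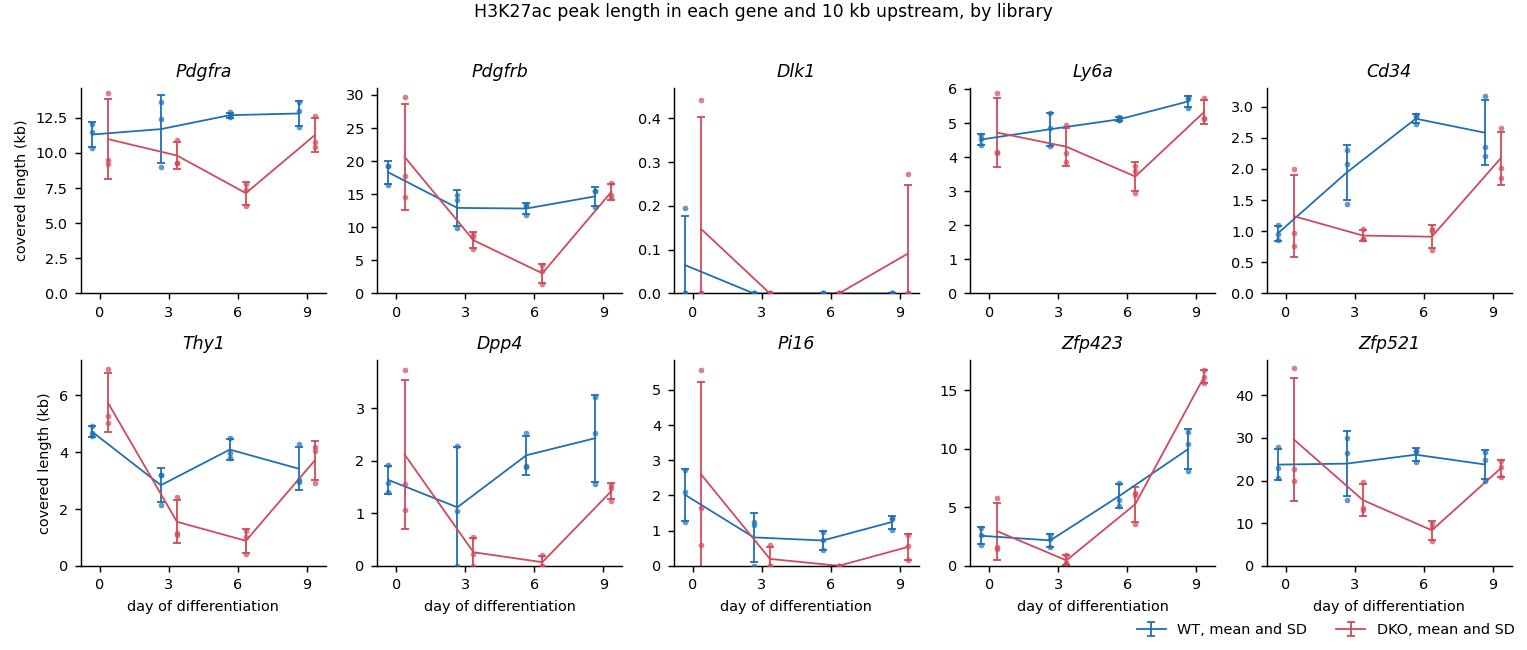
Covered length of H3K27ac peaks (y axis, kb) at each of the 10 genes against the day of differentiation (x axis). Points are single libraries (3 per genotype and day), lines join means and bars are 1 SD, cut at 0. At day 6 the DKO points lie under all WT points in 8 panels (in 6 genes when read as a share), and at day 9 *Zfp423* is the 1 panel with all DKO points above the WT points.

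The receptors were covered at every day in every library. *Pdgfra* encodes the alpha receptor for platelet-derived growth factor, the common surface marker of adipose progenitors. At day 0 its covered length was 10.4, 12.1 and 11.5 kb in WT and 9.20, 14.3 and 9.50 kb in DKO, and at day 3 it was 13.6, 12.4 and 9.02 kb in WT and 9.28, 10.9 and 9.28 kb in DKO. At day 6 it was 12.6, 12.6 and 12.9 kb in WT and 7.80, 7.39 and 6.23 kb in DKO, and at day 9 11.8, 13.0 and 13.6 kb in WT and 12.6, 10.4 and 10.8 kb in DKO. The genotypes overlapped at days 0, 3 and 9 and were apart at day 6, when the means were 12.7 ± 0.171 kb in WT and 7.14 ± 0.814 kb in DKO (SD, n = 3). Averaged over the 4 days, DKO minus WT was -2.32 kb (genotypes exchanged within each day, two-sided exact permutation p = 0.00671, adjusted p = 0.266 over all genes tested). Without DKO day 0 replicate 2 the difference was -2.73 kb with an adjusted p of 0.0452 in the same exact permutation test, so 1 library decides that call. Per Mb of covered length the order at day 6 was not kept, with 223, 227 and 213 bp in WT and 220, 204 and 301 bp in DKO, and at day 3 the shares overlapped too. At days 0 and 9, when the lengths overlapped, the share was lower in DKO without overlap, at 148 to 193 bp per Mb against 221 to 226 in WT at day 0 and at 164 to 184 against 217 to 246 at day 9.

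*Pdgfrb* encodes the beta receptor, found on mural cells and on perivascular progenitors. Its covered length was 16.3, 19.3 and 19.2 kb in WT and 14.5, 29.7 and 17.8 kb in DKO at day 0, and then 14.1, 14.8 and 9.86 kb in WT and 6.67, 8.93 and 8.54 kb in DKO at day 3. At day 6 WT had 13.2, 11.9 and 13.4 kb and DKO 3.401, 4.31 and 1.43 kb, the lowest values of the gene in the series. By day 9 the genotypes overlapped again, at 13.1, 15.4 and 15.5 kb in WT and 16.8, 14.5 and 14.8 kb in DKO. DKO was thus under WT without overlap at days 3 and 6. Over the 4 days the difference was -2.91 kb (exact permutation p = 0.0862, adjusted p = 0.587). As a share, *Pdgfrb* was lower in DKO without overlap at all 4 days: 304, 308 and 306 bp per Mb in DKO against 355, 353 and 378 in WT at day 0, and 244, 228 and 242 against 271, 259 and 265 at day 9. The exact permutation p of that share was 1.25e-05, the smallest that the relabellings can give (adjusted p = 0.00132). The start of *Cdx1*, another protein-coding gene, lies inside the window of *Pdgfrb*, so the 2 cannot be fully separated.

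*Ly6a*, *Cd34*, *Thy1* and *Dlk1* encode proteins of the cell surface by which progenitors are sorted or told apart. *Ly6a* encodes Sca-1. It was covered over 4.53, 4.66 and 4.36 kb in WT and 4.14, 5.89 and 4.12 kb in DKO at day 0, and over 5.70, 5.44 and 5.76 kb in WT and 5.74, 5.11 and 5.13 kb in DKO at day 9. At day 3 the genotypes overlapped, at 4.84, 5.29 and 4.33 kb in WT and 3.855, 4.93 and 4.13 kb in DKO. At day 6 WT had 5.08, 5.08 and 5.18 kb and DKO 3.61, 3.75 and 2.94 kb, with no overlap. As a share the order at day 6 was the other way round, also without overlap, with 102, 103 and 142 bp per Mb in DKO and 89.9, 91.4 and 85.7 in WT. At day 9 the share was lower in DKO without overlap, with 83.4, 80.5 and 83.9 bp per Mb against 118, 91.4 and 98.2 in WT. DKO minus WT over the 4 days was -0.574 kb (exact permutation p = 0.0289, adjusted p = 0.418) and, scaled as a share to the mean covered length, 0.0205 kb. Day 9 minus day 0 was 0.863 kb (exact permutation p = 0.02, adjusted p = 0.0569).

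*Cd34* encodes a sialomucin of stromal and endothelial progenitors. At day 0 its covered length was 0.950, 1.09 and 0.854 kb in WT and 0.764, 1.99 and 0.969 kb in DKO. WT then stood at 2.30, 2.09 and 1.44 kb at day 3 and 2.84, 2.73 and 2.86 kb at day 6, while DKO stood at 0.881, 1.03 and 0.876 kb and at 1.00, 1.03 and 0.703 kb, both days without overlap. At day 9 the genotypes overlapped, at 2.21, 3.18 and 2.355 kb in WT and 2.02, 2.65 and 1.85 kb in DKO. *Cd34* was thus higher at day 6 than at day 0 in all 3 WT libraries, and in DKO the values of the 2 days overlapped. At day 3 the difference lay in the 10 kb upstream, where a region (chr1:194928701-194931995) was called in all 24 libraries, and over the gene alone *Cd34* was 0.267 kb higher in DKO without overlap. The covered length rose from day 0 to day 9 by 1.27 kb (exact permutation p = 0.01, adjusted p = 0.0341). DKO minus WT over the 4 days was -0.761 kb in covered length (exact permutation p = 0.00615, adjusted p = 0.258).

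*Thy1* encodes CD90, a glycoprotein of mesenchymal stromal cells. At day 0 it had 4.57, 4.94 and 4.67 kb in WT and 5.02, 6.93 and 5.27 kb in DKO, so that DKO was above WT without overlap, as were 19.2% of all genes tested. At day 3 it had 3.18, 3.20 and 2.14 kb in WT and 1.16, 2.42 and 1.07 kb in DKO. At day 6 it had 3.97, 3.81 and 4.50 kb in WT, where DKO had 1.24, 0.998 and 0.408 kb, and at day 9 it had 3.01, 2.96 and 4.29 kb in WT and 4.18, 4.05 and 2.91 kb in DKO. The difference was 1.01 kb at day 0 and -3.21 kb at day 6, and the change from day 0 to day 6 differed between the genotypes by -4.23 kb (genotypes exchanged within each day, exact permutation p = 0.005, adjusted p = 0.0477, in a pair of days chosen after the data were seen). *Thy1* was the 1 gene of the 10 past that threshold, where 10.5% of all genes passed as lower. Covered length at *Thy1* fell from day 0 to day 9 by 1.67 kb (exact permutation p = 0.005, the smallest possible, adjusted p = 0.0198). As a share, the genotypes overlapped at day 0, with 99.2, 90.4 and 91.7 bp per Mb in WT and 105, 71.9 and 91.0 in DKO.

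*Dlk1* carried almost no peaks. A peak was present in 3 of 24 libraries, WT day 0 replicate 3 with 0.195 kb, DKO day 0 replicate 2 with 0.443 kb and DKO day 9 replicate 2 with 0.273 kb. All 3 peaks fell in 1 region 2.62 kb upstream of the start, and their fold enrichment was 3.34 to 4.76, near the weakest of each list (q rank 4.69 to 23.1, on a scale where 100 is the strongest peak of a library). The lists hold only peaks past the caller's threshold, so a covered length of 0 is no measure of absence.

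The genes of the earliest progenitors carried weak peaks. *Dpp4* encodes dipeptidyl peptidase 4. It had a peak in 20 libraries, with 1.57, 1.92 and 1.42 kb in WT and 1.07, 3.74 and 1.56 kb in DKO at day 0, and then 1.05, 2.29 and 0 kb in WT and 0, 0.551 and 0.224 kb in DKO at day 3. At day 6 WT had 1.90, 2.53 and 1.88 kb and DKO 0.206, 0 and 0 kb, and at day 9 WT had 1.56, 3.21 and 2.52 kb and DKO 1.24, 1.48 and 1.55 kb. DKO was lower without overlap at days 6 and 9. The difference over the 4 days was -0.854 kb (exact permutation p = 0.0231, adjusted p = 0.390). With every peak replaced by a window reaching 250 bp to each side of the summit, it was -1.82 kb and past the threshold in the same exact permutation test (adjusted p = 0.0452).

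*Pi16* encodes peptidase inhibitor 16, a marker of fibroblasts of the adventitia and of the fascia around fat. It had a peak in 18 libraries, with 2.11, 2.71 and 1.23 kb in WT and 0.583, 5.57 and 1.65 kb in DKO at day 0, and then 1.25, 1.17 and 0 kb in WT and 0, 0.585 and 0 kb in DKO at day 3. At day 6 all 3 WT libraries had a peak (0.742, 0.442 and 0.973 kb) and no DKO library had one, and at day 9 WT had 1.37, 1.03 and 1.33 kb against 0.570, 0.874 and 0.160 kb in DKO. At *Pi16*, as at *Dpp4*, DKO was still lower without overlap at day 9, when 2.08% of all genes were. Over the gene alone the day 9 difference of *Pi16* was 0.0263 kb, and 3 of its 5 regions lie upstream. Its window also overlaps the protein-coding gene *BC004004* and holds the starts of a pseudogene (*Gm10045*) and an antisense transcript (*AC162182.1*). Peaks of these and of *Pi16* cannot be fully separated. The difference over the 4 days was -0.365 kb (exact permutation p = 0.436, adjusted p = 0.920), with the highest value of all in DKO day 0 replicate 2, and day 9 minus day 0 was -1.42 kb (exact permutation p = 0.045, adjusted p = 0.110).

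The zinc finger regulators of commitment follow. *Zfp423* had 1.79, 2.63 and 3.27 kb in WT and 1.62, 5.76 and 1.45 kb in DKO at day 0, and then 2.26, 2.64 and 1.60 kb in WT and 0.223, 0.953 and 0.204 kb in DKO at day 3. At day 6 it had 5.66, 5.13 and 7.09 kb in WT and 6.05, 6.21 and 3.54 kb in DKO, and at day 9 8.09, 10.4 and 11.4 kb in WT and 16.1, 16.7 and 15.6 kb in DKO. DKO was thus lower without overlap at day 3, overlapped at day 6 and was higher without overlap at day 9, by 6.19 kb or 62.2% of the WT mean. Covered length at *Zfp423* rose from day 0 to day 9 by 10.3 kb (exact permutation p = 0.005, adjusted p = 0.0198). The change from day 0 to day 9 was 5.81 kb larger in DKO than in WT (genotypes exchanged within each day, exact permutation p = 0.055, adjusted p = 1), which did not pass the threshold. As a share, *Zfp423* was higher in DKO without overlap already at day 6, with 171, 171 and 171 bp per Mb against 100, 92.3 and 117 in WT, and at day 9, with 235, 263 and 254 against 168, 175 and 194.

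*Zfp521* had 20.6, 27.8 and 22.9 kb in WT and 19.8, 46.3 and 22.7 kb in DKO at day 0, and then 26.5, 29.9 and 15.4 kb in WT and 13.5, 19.7 and 13.1 kb in DKO at day 3. At day 6 it had 26.95, 24.3 and 26.9 kb in WT and 10.1, 9.04 and 5.86 kb in DKO, the largest difference in kb among the 10 genes, and at day 9 19.99, 24.7 and 26.6 kb in WT and 24.6, 23.2 and 20.7 kb in DKO. Only day 6 was without overlap. Over the 4 days DKO minus WT was -5.33 kb (exact permutation p = 0.101, adjusted p = 0.601). As a share it was lower in DKO without overlap at days 3, 6 and 9, for example 357, 366 and 339 bp per Mb against 415, 415 and 454 in WT at day 9, and this share passed the threshold over the 4 days (exact permutation p = 7.50e-05, adjusted p = 0.00320).

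Counted together, 0 of the 10 genes passed the genotype test over the 4 days at an adjusted p under 0.05, where 0.109% of all genes tested passed as lower in DKO and 0.0192% as higher. At an unadjusted p under 0.05, 4 were lower in DKO (*Pdgfra*, *Ly6a*, *Cd34* and *Dpp4*) against 6.04% of all genes, and 0 were higher against 4.02%. At day 6, 8 of 10 were lower in DKO without overlap, which reads against 61.1% of all genes. At day 3 there were 3 (*Pdgfrb*, *Cd34* and *Zfp423*, background 10.6%), at day 9 2 (background 2.08%) and at day 0 none (background 0.718%). In the other direction *Thy1* was the only gene at day 0 (background 19.2%) and *Zfp423* the only one at day 9 (background 30.3%), with none at day 3 (0.77%) or day 6 (0.0641%). Without the shallow WT day 3 replicate 3, 8 of 10 were lower at day 3, and without the wide DKO day 0 replicate 2, 3 were lower at day 0 and 1 gene (*Pdgfra*) passed the test over the 4 days. The backgrounds above are those of all 24 libraries and cannot be set beside these counts, and the shares of all genes without these libraries are not given here. The remaining WT lists of day 3 covered 49.8 and 52.9 Mb and the DKO lists 29.9 to 41.8 Mb. A comparison of 3 with 3 libraries cannot go below an exact p of 0.1. The median difference of the 10 genes was 0.434 kb at day 0, -1.15 kb at day 3, -1.97 kb at day 6 and -0.358 kb at day 9, beside 0.467, -0.200, -0.591 and 0.248 kb over all genes tested.

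**Figure D2:**
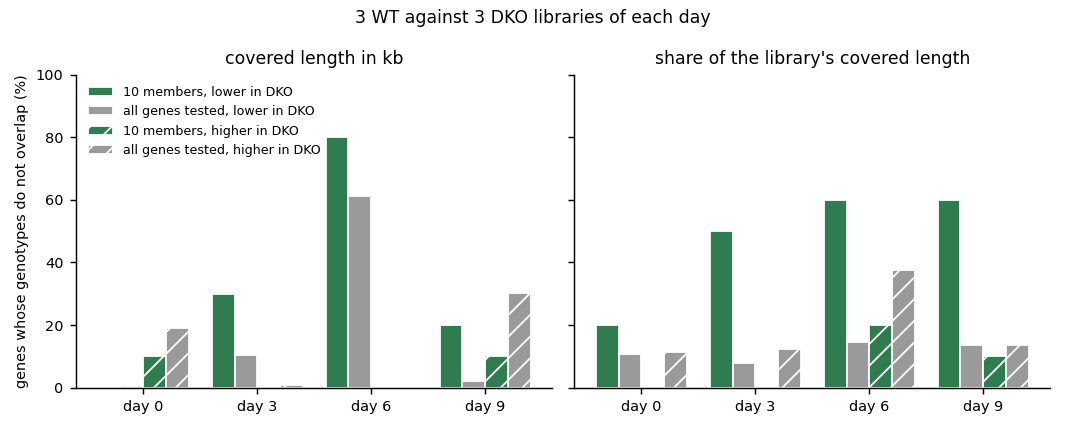
Percentage of genes (y axis) whose 3 DKO libraries all lay below (plain bars) or all above (hatched bars) the 3 WT libraries of a day (x axis), for the 10 genes (green) and all genes tested (grey), by covered length in kb on the left and by share of the library's covered length on the right. In kb, 61.1% of all genes were lower in DKO at day 6, and by share 14.6%, where the 10 genes stood at 8 of 10 and 6 of 10.

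Measured as a share, the split changed. In this scale 5 of the 10 genes passed the exact permutation test over the 4 days, all lower in DKO: *Pdgfrb*, *Cd34* (adjusted p = 0.00530), *Thy1* (adjusted p = 0.0314), *Dpp4* (adjusted p = 0.0155) and *Zfp521*. Over all genes 6.18% passed as lower and 10.1% as higher. Lower in DKO without overlap were 2 of 10 at day 0 (all genes 10.9%), 5 at day 3 (7.82%), 6 at day 6 (14.6%) and 6 at day 9 (13.5%), and higher were 2 at day 6 (*Ly6a* and *Zfp423*, 37.7%) and 1 at day 9 (*Zfp423*, 13.8%). The 10 windows together took 0.136 to 0.141% of the covered length in WT and 0.112 to 0.125% in DKO at day 0, 0.139 to 0.141% and 0.113 to 0.119% at day 3, 0.123 to 0.129% and 0.0902 to 0.102% at day 6, and 0.133 to 0.142% and 0.120 to 0.125% at day 9. These summed shares did not overlap at any of the 4 days. The sums weigh the longest covered windows most. In WT at day 6 the means of *Zfp521*, *Pdgfrb* and *Pdgfra* were 26.1, 12.8 and 12.7 kb of a mean sum of 72.4 kb. No such sum over other sets of genes is given here as a background.

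Over time, with both genotypes together, 1 gene fell from day 0 to day 9 (*Thy1*, background 15.3% of all genes) and 2 rose (*Cd34* and *Zfp423*, background 16.8%) at an adjusted p under 0.05 of the exact permutation test. Without DKO day 0 replicate 2, *Pdgfra* and *Ly6a* also rose, 4 genes in all, and the share of all genes that rose is not given for that setting. From day 0 to day 3, *Pdgfrb* fell by 8.99 kb and *Thy1* fell by 3.04 kb (both exact permutation p = 0.005, adjusted p = 0.0225, background 29.6%), and 0 genes rose (background 1.58%). From day 6 to day 9 the mean was higher for 10 of 10 genes, as for 87.8% of all genes, and no gene tested passed the adjusted threshold (0% in either direction). The smallest adjusted p there was 0.050006, which *Ly6a*, *Pi16* and *Zfp423* shared, and at an unadjusted p under 0.05 6 of the 10 were higher (background 31.4%) and 0 lower (background 0.289%). The change from day 0 to day 9 differed between genotypes at an adjusted p under 0.05 for 0 of the 10 and for 0 of all genes in the exact permutation test, with 0 of the 10 at an unadjusted p under 0.05, where 1.87% of all genes had a smaller and 0.757% a larger change in DKO.

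The strength of the strongest peak was compared apart from the length, for the 7 genes with a peak in all 24 libraries (*Pdgfra*, *Pdgfrb*, *Ly6a*, *Cd34*, *Thy1*, *Zfp423* and *Zfp521*). Fold enrichment is the caller's ratio of reads at the summit to the local background. At *Zfp521* the fold was 16.4, 16.6 and 14.1 in WT and 14.3, 12.3 and 16.1 in DKO at day 0, 28.3, 23.5 and 24.8 against 18.2, 19.0 and 18.3 at day 3, 17.7, 16.6 and 27.01 against 15.7, 13.2 and 11.1 at day 6, and 17.5, 20.4 and 20.3 against 12.2, 13.5 and 14.5 at day 9. DKO was lower without overlap at days 3, 6 and 9, and at day 9 this was so although the covered lengths overlapped. The mean difference in fold over the 4 days was -5.40 (exact permutation p = 6.25e-05, adjusted p = 0.0137).

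*Ly6a* had a fold of 14.0, 14.1 and 14.2 in WT and 12.1, 14.4 and 15.6 in DKO at day 0, and of 20.1, 27.6 and 27.2 in WT and 14.5, 20.2 and 20.2 in DKO at day 9. The difference over the 4 days was -4.96 (exact permutation p = 0.00126, adjusted p = 0.0371). At *Pdgfrb* it was -4.25 (exact permutation p = 0.00356, adjusted p = 0.0576, and 0.0416 without WT day 3 replicate 3), with the genotypes apart at day 6, where WT had 16.2, 18.4 and 16.6 and DKO 7.51, 8.22 and 6.59. Lower in DKO in fold were thus 2 of the 7, *Ly6a* and *Zfp521*, against 5.13% of the 11581 genes with a peak in every library, higher were 0 against 0.25%, and the median difference in fold over those genes was -1.22.

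By q rank, which is the percentile of a peak among the peaks of its own library, 3 of 7 were lower in DKO in the exact permutation test: *Zfp521* at -3.63 (p = 1.25e-05, the smallest possible, adjusted p = 0.00762), *Ly6a* at -5.16 (p = 0.000112, adjusted p = 0.0161) and *Pdgfrb* at -7.23 (p = 0.00119, adjusted p = 0.0454), where 2.99% of genes passed as lower and 0.164% as higher, with a median difference of -1.20 over all genes. Without 1 replicate of every group the 3 differences stayed below 0 but none passed, with adjusted p from 0.131 to 0.365 in the exact permutation test, whose smallest p is then 0.00154. A percentile also moves with the number of peaks in a list, which at day 6 was 47448 to 74867 in DKO and 98503 to 105511 in WT, and its part in these ranks was not tested. The rank of *Zfp521* in DKO was under that of WT without overlap at each of the 4 days, narrowly at day 0, with 92.1 to 93.7 in DKO and 93.9 to 97.3 in WT, and with 92.5 to 93.7 and 95.3 to 96.9 at day 9. From day 0 to day 9 the fold rose at *Ly6a* by 7.57, at *Cd34* by 3.96 (both adjusted p = 0.0342) and at *Zfp423* by 7.31 (adjusted p = 0.0233, exact permutation tests), where 30.8% of genes rose and 2.98% fell. The q rank rose at *Ly6a* by 5.28 and at *Zfp423* by 31.1 (both adjusted p = 0.0341, exact permutation tests), where 9.77% of genes rose and 4.9% fell.

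**Figure D3:**
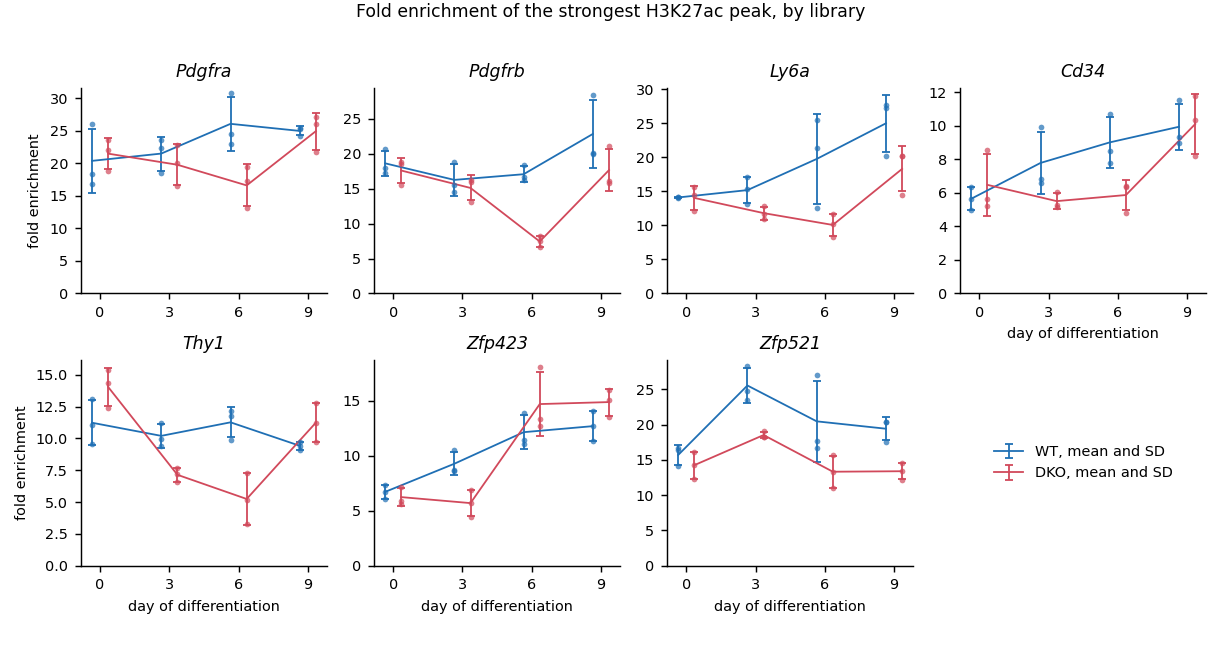
Fold enrichment of the strongest H3K27ac peak (y axis, ratio to the local background) at the 7 genes with a peak in every library, by day of differentiation (x axis). Points are libraries, lines join means and bars are 1 SD of 3 libraries. *Zfp521* in DKO lies under all WT points at days 3, 6 and 9, and *Zfp423* reaches 13.6 to 16.005 in DKO at day 9 against 11.3 to 14.0 in WT.

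The windows held 203 of the 169358 merged regions of the series, a merged region being the union of all peaks of the 24 lists that overlap. *Zfp521* held 75, *Zfp423* 47, *Pdgfra* 28, *Pdgfrb* 19, *Dpp4* 14, *Cd34* 8, *Pi16* 5, *Ly6a* and *Thy1* 3 each and *Dlk1* 1. Of the 203, 162 had their median summit in an intron of the gene, 20 in an exon and 19 upstream, and 11 were called in all 24 libraries. A test was possible for the 88 with 3 to 21 calls, and 59 of them were called in fewer DKO than WT libraries, 20 in more and the rest in as many. The same split over all regions tested is not given here. At an adjusted p under 0.05, 0 of the 88 passed the exact conditional test, as did 0 of the 71228 regions tested (0%), and at an unadjusted p under 0.05 4 of the 88 were called less often in DKO (4.82% of all regions) and 0 more often (0.456%).

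A peak over the gene start was called throughout where the gene was strongly covered, which says nothing of its size. The start regions of *Pdgfra* (chr5:75147727-75157334), *Pdgfrb* (chr18:61041880-61050738), *Ly6a* (chr15:74993122-75000986), *Thy1* (chr9:44039568-44046359) and *Zfp521* (chr18:13966971-13972933) were each called in 24 of 24 libraries. Their size differed between genotypes at day 6, when the start region of *Pdgfrb* was covered over 1.43 to 2.15 kb (DKO) against 4.24 to 5.03 kb (WT), that of *Ly6a* over 3.14 to 4.45 against 6.32 to 6.41 kb, and that of *Thy1* over 0.408 to 0.876 against 3.43 to 3.97 kb, each without overlap. The regions of *Pdgfra* and *Thy1* also span the starts of noncoding transcripts. At *Cd34* the start region (chr1:194938626-194939584) was called in 0 of 6 libraries at day 0 and in 6 of 6 at day 9, with 1 of 3 WT and 3 of 3 DKO at day 3 and 2 of 3 WT and 0 of 3 DKO at day 6. An exonic region 0.240 kb from the start of *Zfp423* (chr8:87959155-87959508) was likewise called in 0 of 6 libraries at day 0 and in 6 of 6 at day 9, and in between by 3 of 3 WT and 1 of 3 DKO libraries at day 3 and by all 6 at day 6. Its median fold was 11.2.

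At *Dpp4* the start region (chr2:62411539-62412198) was called in 5 WT and 2 DKO libraries, and the calls were more frequent inside the gene. In the intronic region shown above, 31.7 kb into the gene (chr2:62380240-62380779), a peak was called in 8 of 12 libraries of WT and 1 of 12 of DKO (exact conditional p = 0.00400, adjusted p = 0.455). It was absent from all 6 lists at day 0, and from day 3 on it was called in 2, 3 and 3 of 3 WT libraries and in 0, 0 and 1 of 3 DKO libraries. The next region, 30.5 kb into the gene, was likewise at 0 of 6 at day 0 and was called in 7 WT and 2 DKO libraries, and a further one at 33.2 kb, named after its values were seen, had 9 and 1 (exact conditional p = 0.005). Of the 14 regions of *Dpp4*, 4 were called at day 6 by 3 of 3 WT and 0 of 3 DKO libraries, as were 4.55% of all merged regions.

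The region upstream of *Pi16* (chr17:29309943-29312513, 5.77 kb before the start) was called in 11 WT and 6 DKO libraries (exact conditional p = 0.05), at day 6 in 3 of 3 and 0 of 3. Its start region (chr17:29318600-29319660) had a peak in 5 WT libraries, in 2 of DKO and in none at day 9. At *Zfp521* the region with the smallest p lay in an intron, 58.5 kb into the gene (chr18:13913928-13914571), with a peak in 9 WT libraries and 1 DKO library (exact conditional p = 0.005, adjusted p = 0.455). Over all 10 genes, 11 of the 203 regions were called at day 6 by every WT library and no DKO library, as were 4.55% of all regions, and 0 the other way round (0.039%). At day 9 these counts were 4 (0.386%) and 3 (1.46%). At *Pdgfra* a region over another annotated start, 10.005 kb into the gene (chr5:75161695-75162811), was called in 10 WT and 4 DKO libraries (exact conditional p = 0.0408, adjusted p = 0.662).

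Along *Zfp423* more regions were called at day 9 than at day 0. In DKO, 17 of its 47 regions were called by all 3 libraries at day 9, as were 27.5% of all merged regions, against 2 at day 0 (22.4%). In WT 9 were (23.4%), against 4 at day 0 (21.8%). Called by at least 1 library at day 9 were 37 regions in DKO (55.2% of all merged regions) and 27 in WT (48.3%), and the DKO lists of that day covered 61.2 to 68.8 Mb and the WT lists 48.2 to 59.6 Mb. The intronic region shown above, 98.1 kb into the gene (chr8:87861216-87861910), was called by 3 of 3 DKO and 0 of 3 WT libraries at day 9, with a median fold of 6.76 (exact conditional p = 0.05, adjusted p = 0.662). Such a call at day 9 was made for 2 of the 47 regions and for 1.46% of all merged regions. From day 0 to day 9, 4 of the 47 went from 0 of 6 to 6 of 6 libraries, as did 2.54% of all regions, while the reverse was seen at 0 of the 47 and at 1 of the 203, in *Zfp521* (1.29% of all regions).

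**Figure D4:**
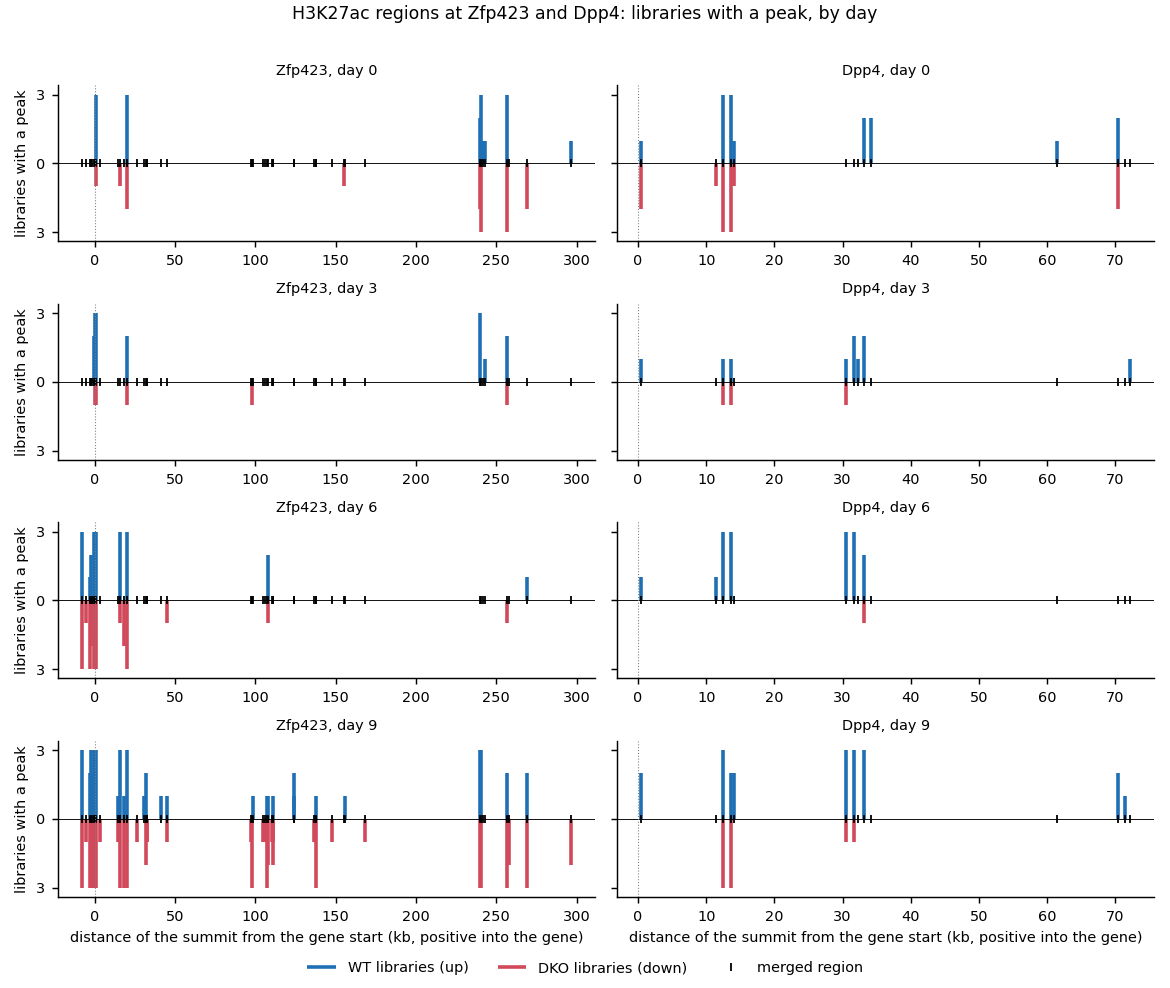
Merged H3K27ac regions at *Zfp423* (left) and *Dpp4* (right) by distance of their median summit from the gene start (x axis, kb, positive into the gene) and number of libraries with a peak (y axis, 0 to 3 per genotype, WT upward and DKO downward), 1 row for each day. At day 9 *Zfp423* has 17 regions called by all 3 DKO libraries and 9 by all 3 WT libraries, and at day 6 *Dpp4* has 4 called by all 3 WT libraries and by no DKO library.

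Other genes of these cells were read in the same way, from lists of markers. Of 28 other stromal progenitor genes, 27 were tested and *Tcf21* had no peak in any library. At day 6, 24 of the 27 were lower in DKO without overlap, as were 61.1% of all genes, with a median difference of -3.39 kb. From day 0 to day 9, 11 rose (16.8% of all genes did), among them *Ebf1* by 48.7 kb, *Efemp1* by 8.94 kb and *Col15a1* by 8.56 kb, and 6 fell (15.3% of all genes), among them *Cd9* by 11.3 kb, *Cd44* by 10.5 kb and *F3*, which fell by 2.97 kb. In the genotype test over the 4 days 0 of the 27 passed at an adjusted p under 0.05 and 4 were lower at an unadjusted p under 0.05, against 6.04% of all genes (*Wnt2*, *Gdf10*, *Mfap5* and *Efemp1*). Over all 8 lists 0 of 60 genes passed the adjusted threshold, with 7 lower and 8 higher at an unadjusted p under 0.05, against 6.04% and 4.02% of all genes. EBF1 is a regulator of adipocyte differentiation, and CD9 and CD44 are surface proteins of stromal cells.

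Of 10 mature adipocyte genes, 9 were tested, *Lep* having a peak in 1 library. From day 0 to day 9, 8 of the 9 rose, against 16.8% of all genes, led by *Cd36* (fatty acid uptake, by 17.96 kb), *Plin1* (lipid droplet coat, by 15.5 kb) and *Lipe* (hormone-sensitive lipase, by 10.1 kb). Their summed covered length was 15.6 to 18.1 kb in WT, against 20.6 to 44.7 kb in DKO at day 0, and 85.6 to 96.7 kb and 121 to 127 kb at day 9. At day 9, 7 of the 9 were higher in DKO without overlap, as were 30.3% of all genes. On the days between, the summed lengths of the genotypes overlapped. DKO libraries ranged from 17.1 to 27.3 kb at day 3 and from 79.1 to 106.9 kb at day 6. The WT ranges were 20.7 to 32.8 and 105.5 to 108.6 kb, so the WT sums of day 6 lay above those of day 9. Singly, 3 of the 9 were lower in DKO without overlap at day 6 (61.1% of all genes) and 0 were higher (0.0641%). All these values are in kb, and at day 6 the DKO lists covered at most 36.3 Mb and the WT lists at least 55.5 Mb. Per Mb, every DKO sum of day 6 (at least 79.1 kb) thus lay above every WT sum (at most 108.6 kb). The single genes of this list are not given as a share here.

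Summed covered lengths of markers of other cells differed between days and, on some days, between genotypes. The falls and rises of single genes from day 0 to day 9 named below stand beside 15.3% of all genes that fell and 16.8% that rose. The 7 immune genes together covered 24.04 to 26.8 kb in WT, against 29.8 to 61.2 kb in DKO at day 0, without overlap, and 8.21 to 10.1 kb and 11.2 to 13.3 kb at day 9. Of the 5 immune genes tested, 4 were singly higher in DKO without overlap at day 0, as were 19.2% of all genes. *Csf1r* fell from day 0 to day 9 by 10.1 kb, *Ptprc* by 5.80 kb and *Itgam* by 5.56 kb. *Cd3e* had no peak. Of the 5 endothelial genes tested, *Pecam1* and *Cdh5* fell, by 2.61 and 1.11 kb, and *Tie1* had no peak. Of 7 mural genes, *Mcam* and *Cspg4* rose by 3.296 and 2.51 kb and *Notch3* by 0.814 kb, and *Acta2* fell by 3.55 kb. Of 4 mesothelial genes, *Wt1* rose by 1.179 kb and *Msln* fell by 0.650 kb, and of the glial genes *S100b* fell by 1.13 kb, where *Sox10* had no peak. The 3 skeletal muscle genes *Myod1*, *Pax7* and *Myf5* had no peak in any library. At day 6, when *Pdgfrb*, *Cd34* and *Thy1* were lower in DKO, the 6 endothelial genes together covered 1.17 to 2.38 kb (DKO) against 4.02 to 4.27 kb (WT) and the 7 mural genes 3.33 to 8.41 against 9.59 to 10.2 kb, both without overlap, while the immune genes overlapped at 6.65 to 13.6 and 11.2 to 11.8 kb. Of the genes tested, 3 of 5 endothelial, 3 of 7 mural and 0 of 5 immune genes were singly lower in DKO without overlap at day 6. The share of all genes was then 61.1%. These sums are in kb, and at day 6 the DKO lists covered 20.7 to 36.3 Mb and the WT lists 55.5 to 60.4 Mb. Per Mb, the DKO library with the highest mural sum lay above every WT library, so the mural sums were not apart by share. The other sums of these markers were not read as a share. At day 9 the mural genes together were higher in DKO without overlap, at 16.5 to 18.6 against 10.5 to 14.8 kb. Singly, 2 of the 7 were higher (30.3% of all genes) and 1 was lower (2.08%). *Cd34*, *Thy1* and *Pdgfrb* are also used by endothelial, immune or mural cells, and the part of such cells in their values was not tested.

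For genes with peaks in at least 12 libraries, the protein-coding gene at least 1 Mb away whose share of covered length was most alike over the 24 libraries was sought. This was *Nr2f2* for *Pdgfra* (Pearson r = 0.92), *Bgn* for *Pdgfrb* (0.94), *Tnfrsf1a* for *Ly6a* (0.95), *Mtor* for *Cd34* (0.88), *Angpt4* for *Thy1* (0.91), *Dlg5* for *Dpp4* (0.88), *Micu2* for *Pi16* (0.87) and *Runx1t1* for *Zfp521* (0.90). Among the 10 genes themselves, *Pdgfra* and *Ly6a* were most alike (r = 0.90), then *Pdgfrb* and *Thy1* (0.80), and the lowest value was that of *Ly6a* and *Dpp4* (-0.62). The 24 libraries share days and genotypes and each share uses the library's own total, so these are descriptions over libraries and not tests.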

How the data were processed

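H3K27ac ChIP-seq was made in 24 libraries, 3 for each of 2 genotypes and 4 days, and 16 input libraries are not analysed here. Single-end 75 bp reads were trimmed with cutadapt 1.18 and aligned to mm10 with BWA, and per the labels narrow peaks were called with MACS2 2.1.1.20160309. The deposited lists hold 1 library each, with no replicates pooled, and which input served as control is not given in the sources used here. The authors' fold enrichment is the ratio of reads at a summit to the local background. The deposited −log10 q value of each peak has a minimum of 2, and its percentile within a list is the q rank. Recovered from fold and p, 100% of summits came out as whole reads (tolerance 0.05), at 4.50 to 12.8 background reads per kb.

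Lists were compared by the kb under peaks in each gene plus 10 kb upstream (GENCODE M21, GRCm38), since peak lists hold no counts of reads between peaks. Genotype was exchanged within days in an exact permutation test (160000 relabellings, smallest p 1.25e-05), and day within genotype, or genotype within 2 days for a change, in 400 relabellings (smallest p 0.005). P-values were two-sided and adjusted by Benjamini-Hochberg over the 15592 genes with a peak in at least 3 libraries. Merged regions (peaks overlapping by 1 bp) were tested by the number of libraries with a peak, by the same relabelling. The tests were checked on simulated data. Python 3.11.15 with numpy 2.4.6, scipy 1.17.1 and pandas 2.3.3 was used.

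The 10 genes, the marker lists and the motifs were chosen with earlier results of these data known. All 10 genes are named. Of their regions, those over an annotated start, the one with the smallest p and the one with the largest change of calls from day 0 to day 9 were eligible to be named. Sequences came from the RefSeq copy of GRCm38. No 2 lists were identical. Alternatives were the peak threshold, number and width, the window, the share of covered length, the filter on genes, the overlap for a call, a left-out replicate or library and a replicate block. Changes between pairs of days other than 0 and 9 were compared between genotypes after the data were seen.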

Additional observations from a re-analysis of the deposited data

Results flagged for a closer look

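Both genes here had a genotype difference of opposite sign on different days, each time without overlap of the 3 DKO and 3 WT libraries. At *Thy1*, DKO minus WT in covered length was 1.01 kb at day 0 and -3.21 kb at day 6. The change from day 0 to day 6 differed between the genotypes by -4.23 kb (exact permutation p = 0.005, adjusted p = 0.0477), a pair of days that was compared after the data were seen. As a share of covered length the day 0 difference of *Thy1* was -0.222 kb, with the genotypes overlapping, and DKO stayed lower without overlap at day 6, at 19.7 to 34.9 bp per Mb against 68.6 to 74.5 in WT. At *Zfp423*, DKO minus WT was -1.71 kb at day 3 and 6.19 kb at day 9, and the difference between these 2 days was not tested. As a share *Zfp423* also stood apart without overlap on both days, at 6.17 to 22.8 bp per Mb in DKO against 45.4 to 51.6 in WT at day 3 and at 235 to 263 against 168 to 194 at day 9. Whole covered length was 47.7 to 96.4 Mb in DKO and 46.1 to 54.6 Mb in WT at day 0, where the highest DKO value without replicate 2 was 58.0 Mb, and 61.2 to 68.8 and 48.2 to 59.6 Mb at day 9. It was 29.9 to 41.8 and 31.1 to 52.9 Mb at day 3 and 20.7 to 36.3 and 55.5 to 60.4 Mb at day 6, and its part in the values in kb was not tested beyond the shares given here.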

How the results depend on the processing

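Of 781 values recomputed under an alternative, 616 kept their direction and their side of the threshold (or stayed within 1 SD, or within 1.5 times for a count), and 21 turned in sign. With peaks of −log10 q of at least 5, 9 of the 10 genes could be tested. Of these, 2 were lower and 1 was higher at day 9 than at day 0 (4609 of all 15285 genes in either direction). In DKO, 1 was lower at day 9 (290 of all 15285). With the 20000 strongest peaks of each library 7 of the 10 genes could be tested, and these counts were 0, 1 and 1. Of all 12478 genes, 1389 moved from day 0 to day 9 in either direction and 424 were lower in DKO at day 9. No gene of the 7 was higher in DKO at day 0 (2065 of all 12478) and 5 were lower at day 6 (4594 of all 12478). Fewer DKO calls were seen in 5 regions and more in 4. There *Pdgfrb* (0.277 kb) and *Thy1* (0.0359 kb) turned over the 4 days, and *Pdgfra* (-0.955 kb) from day 0 to day 9. With 250 bp on each side of summits, 1 gene (*Dpp4*) passed over the 4 days (181 of all 15599 genes in either direction). From day 0 to day 9, 0 fell (2469 of all genes fell or rose). At day 0, 1 was lower in DKO (1156 of all genes) and 0 higher (249), and at day 6 1 was higher (318). Day 9 minus day 0 became 0.405 kb at *Pdgfrb* and 0.484 kb at *Zfp521*, and DKO minus WT became -1.07 kb at *Thy1* (day 0), 0.027 kb at *Cd34* (day 3) and 0.694 kb at *Ly6a* (day 6). Over the gene alone 9 of the 10 genes could be tested. Of these, 1 was higher in DKO at day 3 (*Cd34*, 0.267 kb, 179 of all 14597 genes) and 1 was lower at day 9 (312 of all 14597). *Pi16* became 0.00192 kb over the 4 days and 0.0263 kb at day 9. With 50 kb upstream, 0 genes were higher in DKO at day 0 (3593 of all 17356 genes) and 1 was lower at day 9 (325 of all 17356). *Dlk1* became -0.0075 kb by genotype and 0.987 kb from day 0 to day 9.

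As a share of covered length, 5 genes passed over the 4 days, all lower in DKO (6.18% of all genes), and 3 fell from day 0 to day 9 (22.6%). Lower in DKO were 2, 5 and 6 genes at days 0, 3 and 9, and higher were 0 at day 0 and 2 at day 6. Over the 4 days *Ly6a* became 0.0205 kb, at day 0 *Thy1* became -0.222 kb, and at day 6 *Pdgfra* became 1.05 kb and *Ly6a* 1.35 kb. The cause of these changes was not tested.

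Without a replicate or library, 0 to 1 genes were lower in DKO over the 4 days, 0 to 1 fell and 0 to 4 rose from day 0 to day 9, 0 to 3, 3 to 8 and 2 to 6 genes were lower in DKO at days 0, 3 and 9, and 0 to 1 and 1 to 2 were higher at days 6 and 9. By fold and by q rank 0 to 3 genes were lower. The shares of all genes are not given beside these counts. Regions with fewer DKO calls were 38 to 60 and with more 9 to 19. Day 9 minus day 0 ranged from -6.08 to 1.49 kb at *Zfp521* (0.812 kb without DKO day 0 replicate 2) and from -0.202 to 0.450 kb at *Dpp4*, and the fold difference of *Zfp423* from -0.409 to 0.819. Without 1 replicate of every group the smallest p over 2 days is 0.0556, so no change from day 0 to day 9 can pass there.

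The replicate numbers did not pair the libraries alike at every day. The correlation of same-numbered deviations ran from -0.83 to 0.894, and 4, 3, 0 and 0 of 6 libraries at days 0, 3, 6 and 9 correlated best with their own number. With 3 libraries for each genotype and day, these values cannot decide whether the libraries of days 0 and 3 were paired. With a replicate block, 0 genes fell and 0 rose from day 0 to day 9, and 0 passed by fold and 0 by q rank (smallest p 0.0312 for 2 days and 0.000488 for 4), and the count over the 4 days stayed at 0.

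Peak lists hold no value where no peak passed the caller's threshold, so a covered length moves with depth and with peak width. Intervals for counting error cannot be given from them. Weak peaks near that threshold, as at *Dlk1*, *Dpp4* and *Pi16*, are the most exposed.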
